A study of Mus musculus with 4 samples.

Results

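Heat shock proteins and their co-chaperones were followed as a set of 47 genes of 14220 in the transcript tables of mouse regulatory T (Treg) cells. The genes were taken by name, 46 from the gene column of the files and Bag6, listed there as Bat3, by its RefSeq accession, and for each gene the transcript row of highest mean was used. All 4 libraries were made from sorted Treg cells of the spleen on the C57BL/6 strain. For 2 of them the mice were wild type (WT), and for the other 2 they carried a conditional knockout, in Treg cells, of Nsd2, a histone H3 lysine methyltransferase (cKO). Each library held RNA pooled from 3 or more mice, so the spread between replicates is a spread between pools, part of which may be technical. No source used here gives the Cre driver, the deleted exons, the sorting gate, or the age and sex of the mice. The comparison that the labels imply is cKO against WT, and the libraries were described 1 by 1 before it.

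Heat shock proteins are molecular chaperones that bind unfolded proteins and help them to fold, and they are made in larger amounts after heat, oxidation or other damage to proteins. In resting cells the transcription factor Hsf1 is held inactive by chaperones. When these are drawn away by misfolded proteins, Hsf1 forms trimers that bind heat shock elements, arrays of alternating GAA and TTC units, in front of its targets. Hsp70 proteins work in cycles with J-domain proteins that load them and nucleotide exchange factors that empty them, Hsp90 proteins finish kinases and steroid receptors with the help of many co-chaperones, and the CCT ring folds actin and tubulin. The name of the set says cytosolic, yet 5 of its genes, Hspa9, Hspd1, Hspe1, Trap1 and Dnaja3, encode chaperones of mitochondria.

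The promoters are shown for members that carry a full element, because this sequence feature was no part of how the genes were chosen. The element searched was GAA, NN, TTC, NN, GAA or TTC, NN, GAA, NN, TTC, 3 adjoining units read on both strands with N as any base, in windows from 250 bases before to 50 bases after each RefSeq start (build GRCm38.p6). The table held 39 of the 47 genes. The element stood in the windows of 5 of these 39 genes (12.8%) and in those of 179 of all 27025 genes (0.662%). With 2 adjoining units (GAA, NN, TTC or TTC, NN, GAA), which are parts of the longer element, the numbers were 16 of 39 genes (41%) and 4587 of 27025 (17%). Windows of 4 of the 5 genes are printed 5′ to 3′ on the strand of the gene, with the bases of the element in capitals.
Hsph1, chr5:149636266-149636565, minus strand: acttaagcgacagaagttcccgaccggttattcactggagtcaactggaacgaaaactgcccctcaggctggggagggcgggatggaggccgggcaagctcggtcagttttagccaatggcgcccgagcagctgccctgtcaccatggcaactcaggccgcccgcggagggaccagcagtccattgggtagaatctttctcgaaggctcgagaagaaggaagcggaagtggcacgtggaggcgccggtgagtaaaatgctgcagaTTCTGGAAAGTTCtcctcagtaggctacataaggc
Chordc1, chr9:18292017-18292316, plus strand: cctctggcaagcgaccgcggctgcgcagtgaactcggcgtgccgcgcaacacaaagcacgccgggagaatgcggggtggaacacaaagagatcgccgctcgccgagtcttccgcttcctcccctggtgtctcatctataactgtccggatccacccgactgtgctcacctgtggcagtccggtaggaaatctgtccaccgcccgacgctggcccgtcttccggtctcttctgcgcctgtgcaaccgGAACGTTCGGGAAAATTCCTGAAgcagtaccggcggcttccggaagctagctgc
Hspe1, chr1:55087898-55088197, plus strand: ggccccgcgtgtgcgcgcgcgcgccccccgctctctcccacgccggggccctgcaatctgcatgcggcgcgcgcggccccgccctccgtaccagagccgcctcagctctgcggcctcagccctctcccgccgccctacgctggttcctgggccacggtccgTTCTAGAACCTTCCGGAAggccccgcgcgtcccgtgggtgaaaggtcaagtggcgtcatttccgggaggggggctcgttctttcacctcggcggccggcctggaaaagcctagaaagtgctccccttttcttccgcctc
Dnajb6, chr5:29735648-29735947, plus strand: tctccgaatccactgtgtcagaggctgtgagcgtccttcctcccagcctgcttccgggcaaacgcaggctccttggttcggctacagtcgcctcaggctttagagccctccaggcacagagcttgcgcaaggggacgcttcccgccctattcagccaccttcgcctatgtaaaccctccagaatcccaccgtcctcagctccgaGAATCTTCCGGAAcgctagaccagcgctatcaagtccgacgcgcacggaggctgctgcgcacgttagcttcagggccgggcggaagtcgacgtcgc
Counting the first transcribed base as 0, the Hsph1 element began at position 15, inside the transcribed part. Chordc1 had 3 overlapping elements that began at -4, 1 and 6. Hspe1 had 2 overlapping elements that began at -89 and -84. These same bases (55088059 to 55088076 of chromosome 1) lay in 1 of the 2 windows of Hspd1, which is transcribed from the opposite strand. The other window of Hspd1, 55088194 to 55088493, held 0 elements of 3 units and 0 of 2 units. Dnajb6 had 1 element at -46. A match is a description of these letters and not evidence that a factor was bound.

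The libraries were of similar size. Low values of RPKM, a read count scaled by transcript length and library size, moved in steps of whole reads that gave a depth of 19141000 to 21276000 reads, at which 1 RPKM on a 2 kb transcript stands for 38.3 to 42.6 reads. Nsd2, listed as Whsc1, stood at 6.82 and 7.44 RPKM in WT replicates 1 and 2 and at 3.46 and 4.27 RPKM in the cKO replicates, so both cKO libraries lay below both WT libraries. Whether the counted exons include the deleted ones was not tested. The 7 Treg markers, with Foxp3, Il2ra and Ctla4 among them, summed to 971 to 1039 RPKM in every library. The 3 B cell markers measured summed to 6.78 to 11.7 RPKM, and the CD8 T and NK cell markers to 6.92 to 8.36 RPKM. Myeloid markers summed to 8.27 to 13.0 RPKM in 3 libraries and to 24.8 RPKM in cKO replicate 1, and erythroid markers ran from 3.87 RPKM in cKO replicate 2 to 20.8 RPKM in cKO replicate 1. In bulk RNA fewer cells of a type and less RNA per cell cannot be told apart.

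WT replicate 2 stood apart for the chaperones. Together the 47 genes made up 1.57% of the RPKM of all named genes there, against 1.13% in the other WT library and 1.02% and 0.978% in cKO replicates 1 and 2. Of the 45 members with a mean of at least 1 RPKM, 31 had their highest value in WT replicate 2, where 20.9% of the 10709 genes at that level did. WT replicate 1 was highest for 4 members (17.9% of all genes), cKO replicate 1 for 6 (29.4%) and cKO replicate 2 for 4 (31.8%). At least a 1.5-fold excess over the median of the other 3 libraries, on the RPKM + 1 scale, was present in WT replicate 2 for 14 members and 1.76% of all genes. The same excess held for 0 members in WT replicate 1 (0.71% of all genes), 2 in cKO replicate 1 (1.74%, Hspa1b and Hspb1) and 0 in cKO replicate 2 (1.48%). The lowest value lay in cKO replicate 2 for 17 members (18.2% of all genes), in cKO replicate 1 for 15 (27.5%), in WT replicate 1 for 9 (21.4%) and in WT replicate 2 for 4 (32.8%). At least 1.5-fold below the median of the others were 3 members in cKO replicate 2 (Hspa1b, Hsph1 and Fkbp4; 0.98% of all genes), 1 in WT replicate 1 (1.68%), and 0 in cKO replicate 1 (1.64%) and WT replicate 2 (1.54%). The median difference of WT replicate 2 from the median of the other 3 was 0.30 on the log2 scale over the members and -0.03 over all genes. These counts describe 1 library beside the other 3 and were not tested.

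**Figure D1:**
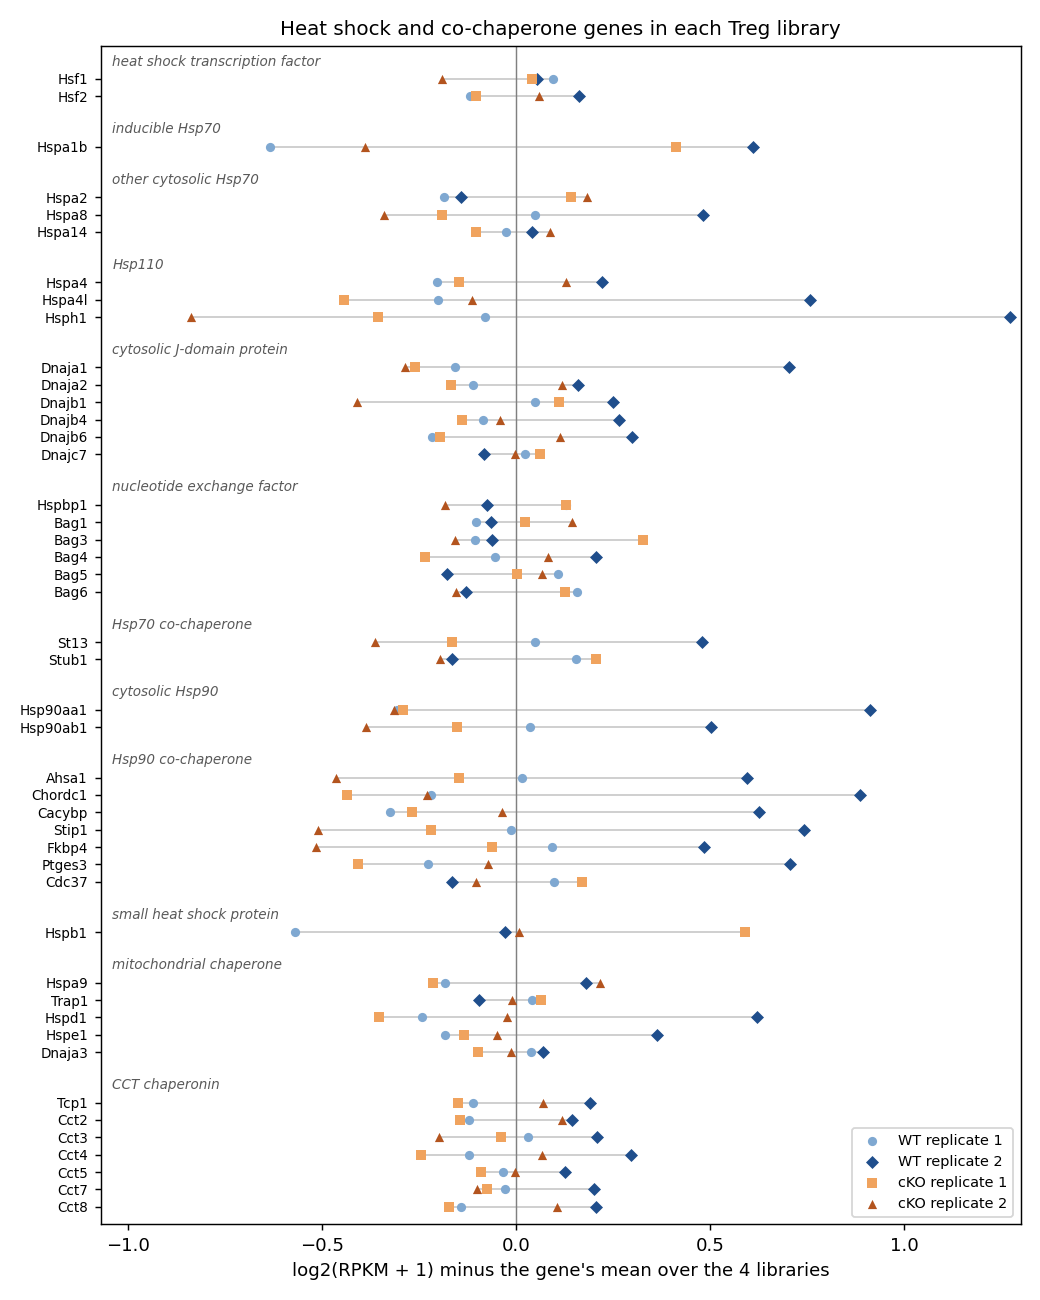
Each row is a member with a mean of at least 1 RPKM, grouped by role; the horizontal axis is log2(RPKM + 1) minus the mean of the gene over the 4 libraries, and each symbol is 1 library. WT replicate 2 lies farthest to the right for 31 of the 45 genes, among them all 7 CCT genes and both Hsp90 genes.

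**Figure D2:**
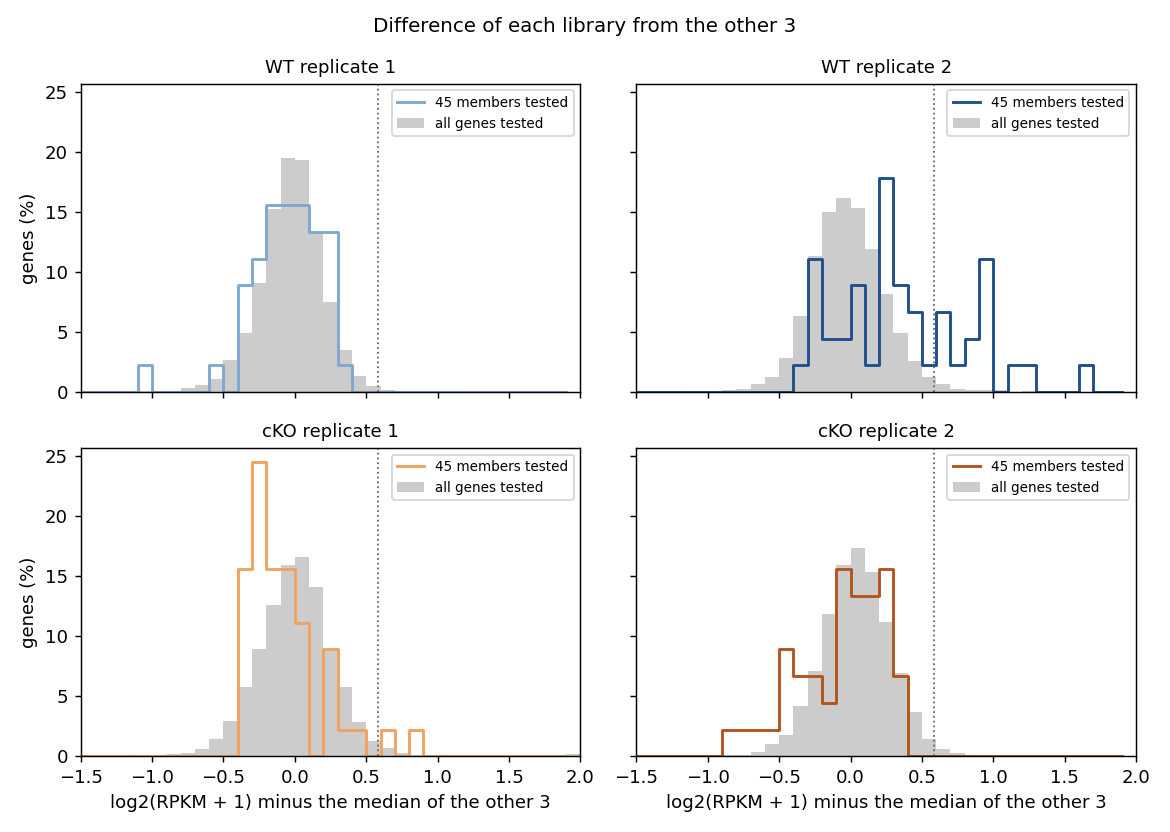
Each panel is 1 library; the horizontal axis is log2(RPKM + 1) minus the median of the other 3 libraries, the vertical axis the percentage of genes per bin, grey bars are the 10709 genes tested, the coloured line the 45 members, and the dotted line marks 1.5-fold. In WT replicate 2 the line for 14 members lies to the right of the dotted line, and in the other panels for 2 or 0.

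Of the transcription factors of the response, Hsf2 was highest in WT replicate 2 and Hsf1 was not. Hsf1, the main heat shock factor (GRCm38, chromosome 15 from 76477362 to 76501155), had 38.2 and 37.1 RPKM in WT replicates 1 and 2, and 36.8 and 31.2 RPKM in the cKO replicates. It was lowest in cKO replicate 2, and both cKO values lay below both WT values. Hsf2, a related factor, stood at 2.97, 3.82, 3.01 and 3.50 RPKM in the same order, a 1.27-fold excess in WT replicate 2. Both libraries numbered 2 lay above both numbered 1, and its genotypes overlapped. In what follows, values by library keep this order of WT replicates 1 and 2 and cKO replicates 1 and 2.

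Among the Hsp70 genes the inducible pair was low. Hspa1b (chromosome 17, 34956429 to 34959238) stood at 1.44, 4.78, 4.03 and 1.89 RPKM, about 79, 256, 217 and 113 reads, and was thus high in 1 library of each genotype. Hspa1a, its near copy, stood at 0.385, 0.896, 0.409 and 0.387 RPKM, about 22 to 51 reads, and did not reach the level for testing. Of the 50-nt windows of the Hspa1a transcript, 66.3% also occurred in transcripts of other genes, with Hspa1b sharing the most, so the split of reads between both genes is uncertain. Hspa8, the constitutive Hsp70 of the cytosol (chromosome 9, 40801276 to 40805202), stood at 887, 1197, 751 and 677 RPKM. It was the most abundant member in all 4 libraries, highest in WT replicate 2, and both cKO values lay below both WT values. Windows shared with 13 other annotated genes made up 74.8% of its transcript. Hspa2, best known from the testis, stood at 0.914, 0.972, 1.40 and 1.47 RPKM, and both cKO values lay above both WT values at about 45 to 79 reads. Hspa14, which binds ribosomes, stayed between 22.5 and 25.9 RPKM.

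The Hsp110 genes encode large relatives of Hsp70 that act as its exchange factors. All 3 were highest in WT replicate 2 (20.9% of all genes). Hsph1 (chromosome 5, 149616843 to 149636498) stood at 40.1, 104, 32.9 and 23.3 RPKM. WT replicate 2 exceeded the median of the other 3 libraries 3.16-fold, the largest such ratio among the members tested, and cKO replicate 2 was the lowest library. None of its 50-nt windows occurred in transcripts of other genes. Hspa4l stood at 5.04, 10.7, 4.11 and 5.42 RPKM, a 2.13-fold excess in WT replicate 2. Hspa4, the third of them, was at 28.4, 38.4, 29.5 and 36.0 RPKM and so was higher in both libraries numbered 2.

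The J-domain proteins split. Dnaja1, which delivers clients to Hsp70 (chromosome 4, 40722468 to 40734965), stood at 42.4, 77.8, 39.4 and 38.7 RPKM, and the 3 libraries other than WT replicate 2 lay within a narrow band. Dnajb1, the Hsf1-inducible partner of Hsp70, stood at 52.0, 60.0, 54.3 and 37.6 RPKM. Its excess in WT replicate 2 was 1.15-fold, and its lowest value was in cKO replicate 2. Dnajb6, which keeps aggregating proteins soluble, stood at 15.3, 22.3, 15.6 and 19.5 RPKM, and Dnaja2 at 31.9, 38.7, 30.6 and 37.6 RPKM, both higher in the libraries numbered 2. Dnajb4 ran from 4.42 RPKM in cKO replicate 1 to 6.17 RPKM in WT replicate 2. Dnajc7 ran from 60.8 to 67.4 RPKM, with its lowest value in WT replicate 2. Windows shared with other genes made up 30.6% of the Dnaja1 transcript and 41.9% of that of Dnajb6.

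Of the other nucleotide exchange factors, Hspbp1 and the Bag genes, 1 of the 6 tested was highest in WT replicate 2 (20.9% of all genes). Bag3, an Hsf1-inducible factor that links Hsp70 to autophagy, stood at 5.73, 5.94, 8.08 and 5.49 RPKM. Bag1 stood at 38.7, 39.7, 42.3 and 46.1 RPKM, and both cKO values lay above both WT values. Bag4 ranged from 4.01 to 5.80 RPKM and Bag5 from 9.38 to 11.6 RPKM, while Bag2 stayed under 1 RPKM in all 4 libraries and was not tested. Bag6, which guards membrane proteins on their way to insertion, stood at 65.4, 53.5, 64.0 and 52.6 RPKM, and Hspbp1 at 24.5, 21.2, 24.5 and 19.6 RPKM. For these last 2 genes the libraries numbered 2 were the low ones in both genotypes. Of the other Hsp70 co-chaperones, St13 (Hip), which stabilises Hsp70 bound to its client, stood at 57.7, 78.2, 49.7 and 43.1 RPKM. Stub1 (CHIP), a ubiquitin ligase for chaperone clients, stood at 45.8, 36.5, 47.6 and 35.7 RPKM, with 45.3% of its exonic bases under other genes, Jmjd8 on the opposite strand among them.

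Both cytosolic Hsp90 genes and 5 of their 7 co-chaperones were in excess by at least 1.5-fold in WT replicate 2 (1.76% of all genes). Hsp90aa1, the stress-inducible form (chromosome 12, 110691036 to 110696395), stood at 97.7, 229, 98.8 and 97.2 RPKM. The 3 lower libraries lay within 97.2 to 98.8 RPKM, and WT replicate 2 stood 2.34-fold above their median. Hsp90ab1, the constitutive form (chromosome 17, 45567778 to 45573261), stood at 727, 1005, 638 and 542 RPKM, 1.58-fold above the median of the others in WT replicate 2 and lowest in cKO replicate 2. Windows shared with other genes made up 58.5% of the Hsp90aa1 transcript and 4.49% of that of Hsp90ab1.

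Among the Hsp90 co-chaperones, Stip1 (Hop), the adaptor that joins Hsp70 to Hsp90 (chromosome 19, 7020696 to 7040026), stood at 71.4, 121, 61.8 and 50.4 RPKM. Ahsa1, the activator of the Hsp90 ATPase, stood at 69.4, 104, 61.9 and 49.4 RPKM. Fkbp4, an immunophilin of steroid receptor complexes, stood at 65.4, 86.2, 58.7 and 42.6 RPKM. In these 3 genes the order of the libraries was the same as in Hsp90ab1, with WT replicate 2 first and cKO replicate 2 last. Chordc1 (chromosome 9, 18292267 to 18314000), Ptges3 (p23) and Cacybp showed other orders, which differed from gene to gene below WT replicate 2. Chordc1 stood at 32.2, 70.5, 27.6 and 31.99 RPKM, Ptges3 at 36.5, 70.5, 32.1 and 40.8 RPKM, and Cacybp at 24.0, 47.3, 25.0 and 29.5 RPKM. Their excess in WT replicate 2 was 1.90-fold to 2.20-fold, and cKO replicate 2 was not their lowest library. Cdc37, which brings kinases to Hsp90, was lowest in WT replicate 2, at 71.6 RPKM against 74.8 to 90.6 RPKM in the others.

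The small heat shock gene Hspb1 was highest in cKO replicate 1, at 1.87, 3.18, 5.41 and 3.28 RPKM or about 33 to 94 reads. That library also had the highest sum of myeloid markers, whose part in the Hspb1 value was not tested. Windows shared with other genes made up 60.4% of the Hspb1 transcript. Of the mitochondrial chaperones, Hspd1 (Hsp60; chromosome 1, 55077833 to 55088243) stood at 45.8, 84.1, 42.3 and 53.5 RPKM. Hspe1 (Hsp10), its neighbour and partner (55088148 to 55091317), stood at 90.2, 132, 93.5 and 99.1 RPKM. Both were highest in WT replicate 2, by 1.84-fold and 1.42-fold over the median of the others. Windows shared with other genes made up 44.8% of the transcript for Hspd1 and likewise 44.8% for Hspe1. Hspa9, the mitochondrial Hsp70, stood at 33.7, 43.7, 33.0 and 44.8 RPKM, higher in both libraries numbered 2, whereas Trap1 stayed between 30.3 and 33.9 RPKM and Dnaja3 between 11.9 and 13.5 RPKM.

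The CCT chaperonin genes were present at similar levels. Within each library the 7 genes spanned 1.83-fold to 2.03-fold, from Tcp1, the lowest in every library (50.1, 61.9, 48.8 and 56.9 RPKM), to Cct5, the highest in every library (102, 114, 97.7 and 104 RPKM). All 7 were highest in WT replicate 2 (20.9% of all genes), and 0 of 7 reached 1.5-fold there (1.76% of all genes). Their ratios to the median of the other libraries ran from 1.12-fold for Cct5 to 1.34-fold for Cct4. Cct4 stood at 70.3, 94.1, 64.4 and 80.2 RPKM and Cct2 at 84.5, 102, 83.0 and 99.9 RPKM, so that cKO replicate 2 came second for both. Cct3 at 80.4, 91.1, 76.6 and 68.5 RPKM and Cct7 at 70.4, 82.8, 68.2 and 66.9 RPKM had cKO replicate 2 last, and both cKO values lay below both WT values. Cct8 ran from 56.5 RPKM in cKO replicate 1 to 73.7 RPKM in WT replicate 2. For Tcp1, Cct2, Cct4, Cct5 and Cct8 both libraries numbered 2 lay above both numbered 1.

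**Figure D3:**
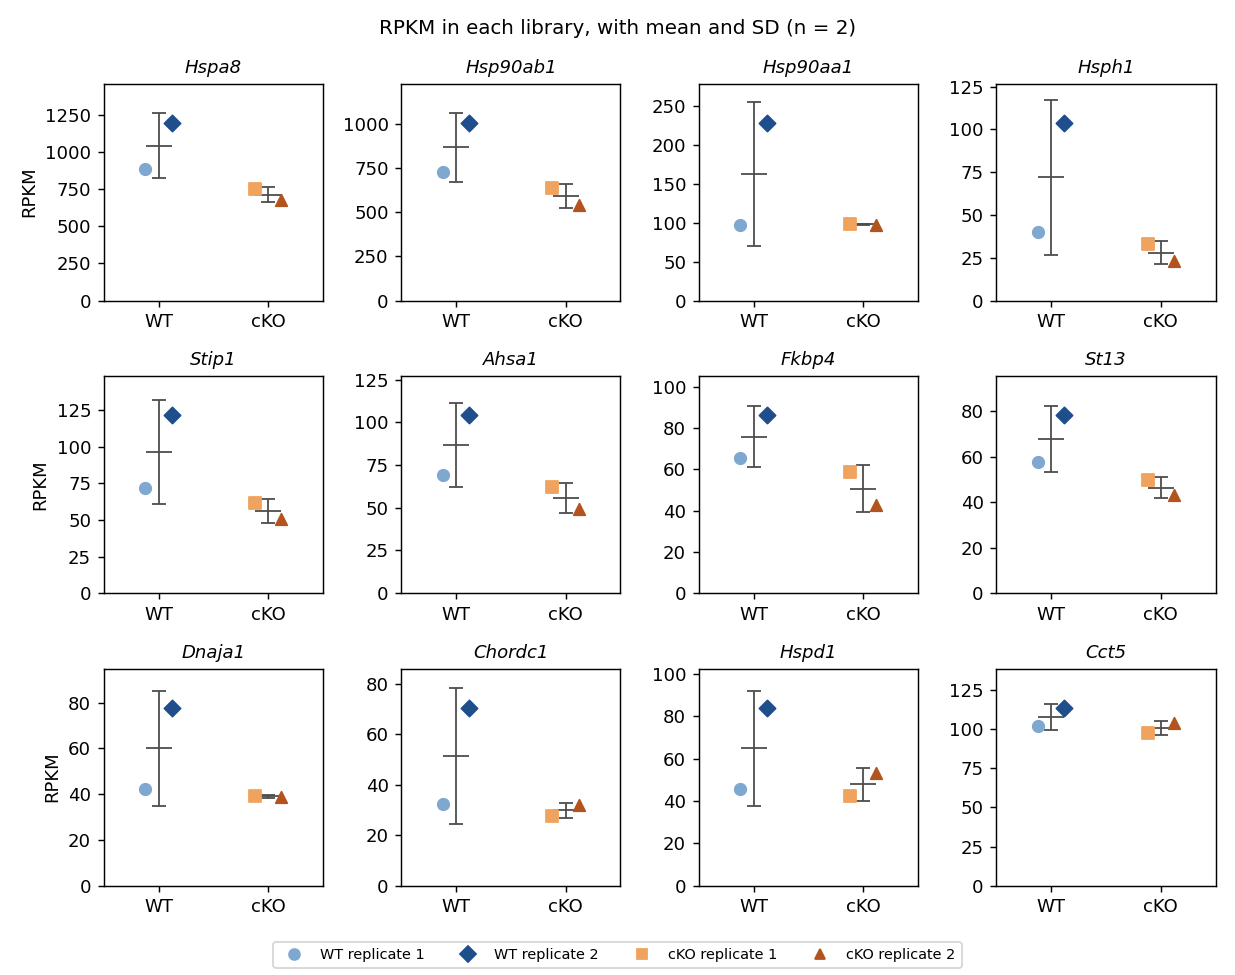
RPKM (vertical axes, each from 0) of 12 members in WT and cKO libraries; symbols are single libraries, and the bar with caps is the mean ± SD (n = 2). Hsp90aa1 is high in WT replicate 2 only, with 98.8 and 97.2 RPKM in cKO against 97.7 RPKM in WT replicate 1, whereas Hspa8, Hsp90ab1, Hsph1, Stip1, Ahsa1, Fkbp4, St13, Dnaja1 and Chordc1 are lower in both cKO libraries than in either WT library.

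Replicate number and base composition moved with these values. For 18 members both libraries numbered 2 lay above both numbered 1 (31.9% of all genes), and for 6 they lay below (28.9% of all genes). GC content of the transcript had a median of 44.5% in the 18 and 56% in the 6, Stub1, Bag6, Hspbp1, Cdc37, Trap1 and Dnajc7. Over the 45 members the correlation of GC content with the log2 difference of number 2 from number 1 was -0.78, and over 10432 genes -0.66, as a description of points that share the same libraries. GC content also went with the difference of WT replicate 2 from the median of the other 3 (r = -0.52 over members, -0.57 over all genes). After each library was corrected for GC content and length, an alternative chosen after the data were seen, 33 of the 45 members were highest in WT replicate 2 (27% of all genes) and 15 were in excess by at least 1.5-fold (1.41% of all genes). The median difference over the members was then 0.24. On the RPKM + 1 scale the corrected excess was 2.88-fold for Hsph1, 2.04-fold for Hsp90aa1, 2.05-fold for Stip1 and 1.69-fold for Chordc1. St13 left the group at 1.33-fold, and Fkbp4 and Hspe1 joined it at 1.71-fold and 1.59-fold.

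**Figure D4:**
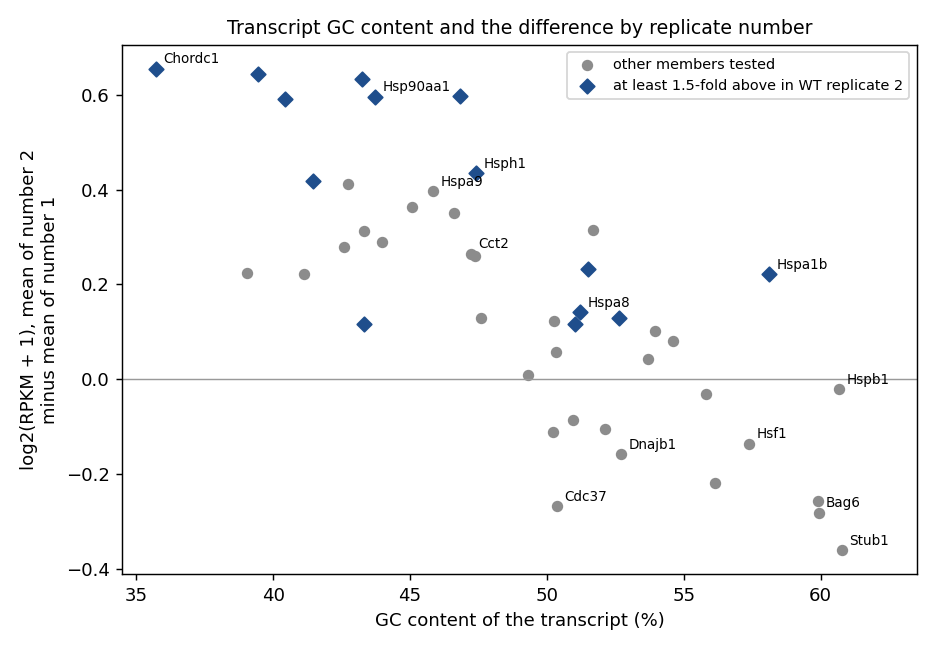
Each point is 1 of the 45 members; the horizontal axis is GC content of the transcript in percent, and the vertical axis is the mean log2(RPKM + 1) of the libraries numbered 2 minus that of the libraries numbered 1. Points fall from left to right (r = -0.78), and the 14 blue diamonds, in excess by at least 1.5-fold in WT replicate 2, reach from Chordc1 at 35.7% to Hspa1b at 58.1% GC.

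Between genotypes no member passed the test. With limma on log2(RPKM + 1), 0 of 45 members and 0 of 10709 genes (0%) had an adjusted p under 0.05 in either direction. At an unadjusted p under 0.05 there were 7 members, all lower in cKO (0.99% of all genes on that side), against 3.1% of all genes in both directions. These were Hsph1, Hspa8, Hsp90ab1, Stip1, Ahsa1, Fkbp4 and St13. In 13 members both cKO libraries lay below both WT libraries (9.06% of all genes), and in 3, Hspa2, Hspb1 and Bag1, above them (17.4% of all genes). The median log2 fold change was -0.11 over the members and 0.03 over all genes. With WT replicate 2 left out, both cKO libraries lay below WT replicate 1 for 16 members (22.8% of all genes) and above it for 9 (32.5% of all genes), and the median log2 fold change over the members was -0.01.

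The 3 members of lowest p were Hspa8, St13 and Hsp90ab1. Hspa8 averaged 1042 ± 219 RPKM over the WT pools and 714 ± 52.1 RPKM over the cKO pools (SD, n = 2), which is -0.53 ± 0.18 (SE) in log2 (limma, unadjusted p = 0.0291, adjusted p = 0.9998). St13 was at 68.0 ± 14.5 and 46.4 ± 4.64 RPKM (limma, unadjusted p = 0.0296) and Hsp90ab1 at 866 ± 197 and 590 ± 67.5 RPKM (SD, n = 2; limma, unadjusted p = 0.036). In log2 the differences were -0.53 ± 0.18 (SE) for St13, -0.54 ± 0.20 for Hsp90ab1, -0.73 ± 0.27 for Stip1, -0.58 ± 0.21 for Fkbp4 and -0.61 ± 0.23 for Ahsa1. For Stip1, Fkbp4, Ahsa1 and Hsph1 limma's unadjusted p was 0.0361, 0.0368, 0.0384 and 0.0423, and the adjusted p was 0.9998 for each. Relative to WT replicate 1 alone the cKO mean was 80.5% for Hspa8, 80.4% for St13, 81.2% for Hsp90ab1, 78.5% for Stip1, 80.2% for Ahsa1 and 77.4% for Fkbp4. Hsp90aa1 differed: its mean in cKO came to 60.0% of that in WT and to 100.3% of WT replicate 1, at -0.61 ± 0.38 (SE) in log2. For Hsph1 the mean in cKO came to 39.0% of that in WT (28.1 ± 6.82 against 72.0 ± 45.1 RPKM, SD, n = 2) and to 70.1% of WT replicate 1, at -1.19 ± 0.45 (SE) in log2. On the higher side Hspa2, Hspb1 and Bag1 had log2 fold changes of 0.33, 0.60 and 0.17 with standard errors of 0.14, 0.27 and 0.12. That of Hspb1 was 0.31 without cKO replicate 1 and 0.33 without WT replicate 1, that of Hspa2 was 0.56 with a pseudocount of 0.1, and that of Bag1 was 0.08 after the GC and length correction. Without WT replicate 1, WT replicate 2 was the only WT library, so the spread among WT pools could not be measured. The log2 fold change was then -1.87 for Hsph1 and -1.21 for Hsp90aa1. With all libraries in the fit, limma's adjusted p was 0.9998 for both genes.

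Lists of other chaperone genes that are not members rose less in WT replicate 2 or not at all. Of all genes, 20.9% were highest in that library and 1.76% were in excess there by at least 1.5-fold. None of these lists had a gene that passed limma's test between genotypes. Of the 6 lists here and in the next paragraph, 3 had 1 gene each with a limma unadjusted p under 0.05. That was 1 of 17 further Hsp90 co-chaperones (Fkbp5), 1 of 16 further J-domain genes (Dnajb2) and 1 of 15 immediate early genes (Dusp1). All were lower in cKO (0.99% of all genes on that side, 3.1% in both directions). Of 17 further Hsp90 co-chaperones 0 passed in either direction, 2 were highest in WT replicate 2 and 1 was in excess there by at least 1.5-fold. That gene was Ahsa2, a relative of Ahsa1, at 17.1, 26.7, 14.8 and 16.7 RPKM. Fkbp5, a glucocorticoid-induced immunophilin, named here after its values were seen, was highest in WT replicate 1, at 37.5, 23.7, 17.2 and 19.3 RPKM. Of 10 prefoldins and other chaperonin partners 0 passed, 3 were highest in WT replicate 2, and Cct6a, the CCT subunit outside the set, stood at 38.4, 58.3, 41.9 and 45.7 RPKM. Of 16 further J-domain genes 0 passed and 2 were highest there, with Dnaja4 at 8.61, 14.2, 9.05 and 7.74 RPKM. Of 8 other genes known to be induced by heat 5 were tested and 0 passed, and 2, Dnaja4 and Zfand2a, were highest in WT replicate 2. Dnaja4 is on the J-domain list as well and so is counted in both. Zfand2a stood at 5.46, 6.61, 5.95 and 4.45 RPKM. The median log2 difference of WT replicate 2 from the median of the others was -0.08 over the further Hsp90 co-chaperones and 0.15 over the prefoldin list. It was -0.11 over the further J-domain genes and -0.09 over the other heat-induced genes, beside -0.03 over all genes.

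Chaperones of the endoplasmic reticulum, which answer to a separate stress pathway, showed a smaller difference. Of 17 genes tested, 8 were highest in WT replicate 2 and 0 were in excess by at least 1.5-fold, with a median difference of 0.04 on the log2 scale, and 0 passed between genotypes. Hsp90b1, the Hsp90 of that compartment, stood at 85.5, 115, 81.2 and 85.3 RPKM. Of 15 immediate early genes tested, which respond within minutes to handling and stimulation, 5 were highest in WT replicate 2, 1 was in excess there by at least 1.5-fold and 0 passed between genotypes. Jun stood at 12.8, 23.3, 19.9 and 14.7 RPKM. Of all genes, 20.9% were highest in WT replicate 2 and 1.76% were in excess there by at least 1.5-fold. The difference between these lists and the members was not tested.

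Genes with a pattern like that of Hsph1 were ranked over all 10709 genes by how far WT replicate 2 exceeded the highest of the other 3 libraries on the log2(RPKM + 1) scale. Hsph1 ranked 2, Hsp90aa1 4, Chordc1 5 and Hspa4l 10, so that 4 of the first 10 genes were members, and 15 of the first 100 (0.934% of all genes). The other 6 were the small nuclear RNA genes Rnu1a1 and Rn7sk, the small nucleolar RNA Snord45b, the T cell receptor segment Traj41, the transfer RNA entry TrnS2 and Crem, a cAMP-responsive transcription factor. Crem stood at 5.22, 12.3, 5.22 and 4.01 RPKM. Rn7sk stood at 10.8, 97.4, 5.33 and 37.8 RPKM, high in both libraries numbered 2. The ranking covers 4 libraries and 1 of them sets it.

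Of the 14 members in excess by at least 1.5-fold in WT replicate 2, 10 were in the promoter table. Of these, 3, Hsph1, Chordc1 and Hspd1, carried the element of 3 units printed above, Hspd1 in 1 of its 2 windows. Hspa8, Hsp90aa1, Hsp90ab1 and St13, also in excess, were not in the table. Of the other 31 members tested, 27 were in the table and 2, Hspe1 and Dnajb6, carried it. The bases found for Hspd1 and Hspe1 are the same, so they count on both sides, and the contrast was not tested. With 2 units the numbers were 5 of 10 and 10 of 27. Hspa1a, Hspa1b, Dnajb1, Bag3 and Hspb1 had 0 elements of 3 units. Only exact matches were searched, so a window that did not count may hold an inexact element.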

How the data were processed

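The authors deposited 1 table per library with 19291 transcript rows and a value in RPKM. The unit is not named in the file headers and was read from the values, which sum to 425786 to 437436 per library. The submitters' processing notes name HISAT2, DESeq2 and mm10 but give neither versions nor roles. No source used here says how reads shared between genes were counted, with which tool, or whether by strand. Reads were single-ended with 50 nt, per the labels' protocols.

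Of the rows, 16720 were matched to genes by RefSeq accession (GRCm38.p6) and 1402 by the name in the file. Another 1169 rows could not be named; they carry 10.9% of the summed RPKM and were left out. Of 14220 genes, 10709 that averaged 1 RPKM or more entered limma 3.58.1 (R 4.3.3) on log2(RPKM + 1), with a robust trended prior, genotype alone in the model, two-sided, with Benjamini-Hochberg adjustment at 0.05. Fold changes on this scale understate those of low genes. The model was tested on simulated data. Ratios of single libraries in the text are of RPKM itself. Depth was set where most low values (0.7 to 6.5 reads) lay within 0.1 of a whole read, 66.7% to 69.8% at the best depth. Transcript lengths, GC content and shared 50-nt windows came from GENCODE M21, so reads per gene are approximate.

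The members and lists were chosen with earlier results of these data known, so no p is adjusted over the members alone. Values of every library were given for the heat shock factors, the main Hsp70 and Hsp90 genes, the 12 members with the largest ratio of 1 library to the other 3, the 3 of lowest p per direction, and examples per role. Alternatives were the pseudocount, filter, scaling, replicate block, transcript choice, moderation, each library left out, and a GC and length correction by lowess (statsmodels 0.14.6). Figures were drawn with matplotlib 3.10.9.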

Additional observations from a re-analysis of the deposited data

How the results depend on the processing

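With the pseudocount at 0.1, no filter, median-of-ratios scaling, the mean of a gene's transcript rows, limma without trend and robust moderation, or the GC and length correction, 0 members and 0 genes were called. With the replicate block, that is with replicate number as a term, 1 gene and 0 members were called. Deviations of same-numbered libraries from their group means had a correlation of 0.50 over all genes and 0.05 over the members, and nothing in the labels says that a number marks a shared day or litter. Leaving out 1 library called 21 to 66 genes and 0 to 8 members, with a median log2 fold change of the members from -0.282 to -0.014, and the 8 members were called without WT replicate 1 only. Hsp90aa1 ran from -1.214 to 0.004 (log2 fold change), and its sign turned without WT replicate 2. The other 10 log2 fold changes printed kept their sign in every alternative run, but not their size. In these 10 genes both cKO libraries lay on the same side of both WT libraries. Leaving out 1 library could therefore not turn their sign, and the replicate block and the moderation leave the estimate unchanged. The kept sign is thus no sign of robustness. Without WT replicate 2 the log2 fold changes were -0.52 for Hsph1, -0.31 for Hspa8, Hsp90ab1 and St13, -0.35 for Stip1, -0.32 for Ahsa1 and -0.38 for Fkbp4. Hspb1 ran from 0.31 to 0.89 with 1 library left out. The numbers of members highest (31 to 33) and in excess (11 to 15) in WT replicate 2 stayed within 1.5 times their values above. The shares of all genes moved as well, from 20.9% to 38.9% highest and from 1.15% to 2.88% in excess. The 38.9% was found without cKO replicate 2, and with 1 library left out a gene has fewer libraries to be highest in. With 2 units enough, 16 genes in place of 5 held the heat shock element. With 2 libraries a group, an exact permutation test of 1 gene cannot reach 0.05. Depth limits Hspa1a, Hspa2, Hspb1 and Bag2, which rested on about 20 to 94 reads a library.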
